A study of Mus musculus with 10 samples.

Results

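The genes described here encode 8 proteins that neutrophils store in their granules, namely Mpo, Elane, Prtn3 and Ctsg of the primary (azurophil) granules and Ltf, Lcn2, Camp and Ngp of the specific granules. They were taken by name from the annotation of the array, on which each has 1 probe set, so that they make up 8 of 22690 probe sets and 8 of 12394 named genes. Elane also goes by the older symbol Ela2. The levels were measured in 32Dcl3 cells, a mouse myeloblast line that depends on IL-3 for growth and matures toward neutrophils in G-CSF, to find out how the dose of IL-3 changes the decay of mRNA. In each of 2 independent experiments a culture was washed free of IL-3, received actinomycin D at 10 µg/ml to stop transcription, and was divided. The 5 groups were a 0 h sample, high IL-3 (1 ng/ml) for 2 h or 4 h, and low IL-3 (10 pg/ml) for 2 h or 4 h. Each group held 2 arrays, 1 from each experiment, and the 10 Affymetrix mouse arrays were normalized together. The 5 arrays of an experiment came from the same divided culture, so that replicate error can be judged only by comparing the 2 experiments. The sources disagree on the 0 h sample. The sample titles place it after actinomycin D and a second label just before it, whereas the study starts its clock when cytokine was added to the blocked cells, and that count is used here.

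Neutrophil precursors make their granules in waves. Primary granules are filled first, at the myeloblast and promyelocyte stages, with myeloperoxidase and the serine proteases neutrophil elastase, proteinase 3 and cathepsin G, and specific granules follow at the myelocyte and metamyelocyte stages with lactoferrin, lipocalin 2 and cathelicidin. Much of this order is set by transcription factors, among them PU.1 (Spi1), C/EBP family members, Myb, Runx1 and Gfi1. The cell line is an established clone and not a primary cell, so its granule gene expression is that of the culture.

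The upstream sequences of the 8 genes are shown because the same factors recur in the results below. Promoters of 300 bases, from 250 before to 50 after the start site, were taken from RefSeq (GRCm38.p6), and all 8 genes matched. On either strand 7 motifs were searched, and their letters were chosen after the promoters had been read, so that the counts are descriptions. The letters GGAAGT, a core that ETS factors such as PU.1 recognise, occurred in 4 of the 4 primary granule promoters and in 0 of the 4 specific granule promoters, against 23.8% of 32851 promoters of the same length. The stretches around the match follow, read along the strand of the gene, with the match in capitals.

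Prtn3, chr10:79879564-79879589, plus strand, match 93 bases before the start site: actggaaggaGGAAGTgggacccaca

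Elane, chr10:79886219-79886244, plus strand, match 83 bases before the start site: gtcccagggaGGAAGTagggctgtgg

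Mpo, chr11:87793552-87793577, plus strand, match 222 bases before the start site: gagagagagaGGAAGTtgcctttgtc

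Ctsg, chr14:56102764-56102789, minus strand, match 205 bases before the start site: aggaagaaaaGGAAGTagtcacctgt

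The letters TTGCNNAA, a core that C/EBP factors recognise, showed the opposite distribution, in 0 of 4 primary and 3 of 4 specific granule promoters (Lcn2, Ngp and Ltf), against 10.8% of all promoters. In Ltf the match reads on the strand opposite to the gene, and Ngp holds a second match 11 bases before its start site.

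Lcn2, chr2:32387938-32387965, minus strand, match 216 bases before the start site: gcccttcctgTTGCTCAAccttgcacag

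Ngp, chr9:110419660-110419687, plus strand, match 138 bases before the start site: tcctggtttaTTGCCCAAacctccttgc

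Ltf, chr9:111019207-111019234, plus strand, match 75 bases before the start site: ggcaggcctaTTGGGCAAtagggtgggg

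The longer ETS core AGGAAGT was in the same 4 primary promoters and in 9.35% of all promoters. The MYB core CAACGG was in 2 of 4 primary promoters (Elane and Prtn3) and 0 of 4 specific promoters, against 5.12% of all promoters. TATAAA was in Ctsg alone (13.6%). The RUNX core TGTGGT, in Ctsg and Ltf (16.8%), and the short MYB core AACNG, in all 8 (80.3%), did not divide the 2 kinds. A match of letters is not evidence of a bound site.

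At 0 h, 6 of the 8 genes were brighter than 50% of probe sets as the mean of both arrays, and Ltf, at 43.4, was not on the array of experiment 2 alone. The share of probe sets on the array that were dimmer, averaged over the 0 h arrays, was 97.6% for Ctsg, 93.6% for Prtn3, 90.9% for Lcn2, 87.6% for Mpo, 59.7% for Ngp, 54.7% for Ltf, 31.6% for Elane and 1.59% for Camp. Intensity depends on the probes of each set, so that the genes are not ranked against each other by level. In a bulk culture, fewer cells of a type and less RNA per cell cannot be told apart. The test was limited to probe sets whose intensity averaged 50 or more over the 10 arrays, which kept 11856 probe sets and 6 of the 8 genes. Elane (mean 19.6) and Camp (mean 1.50) are therefore given as values without a test.

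**Figure D1:**
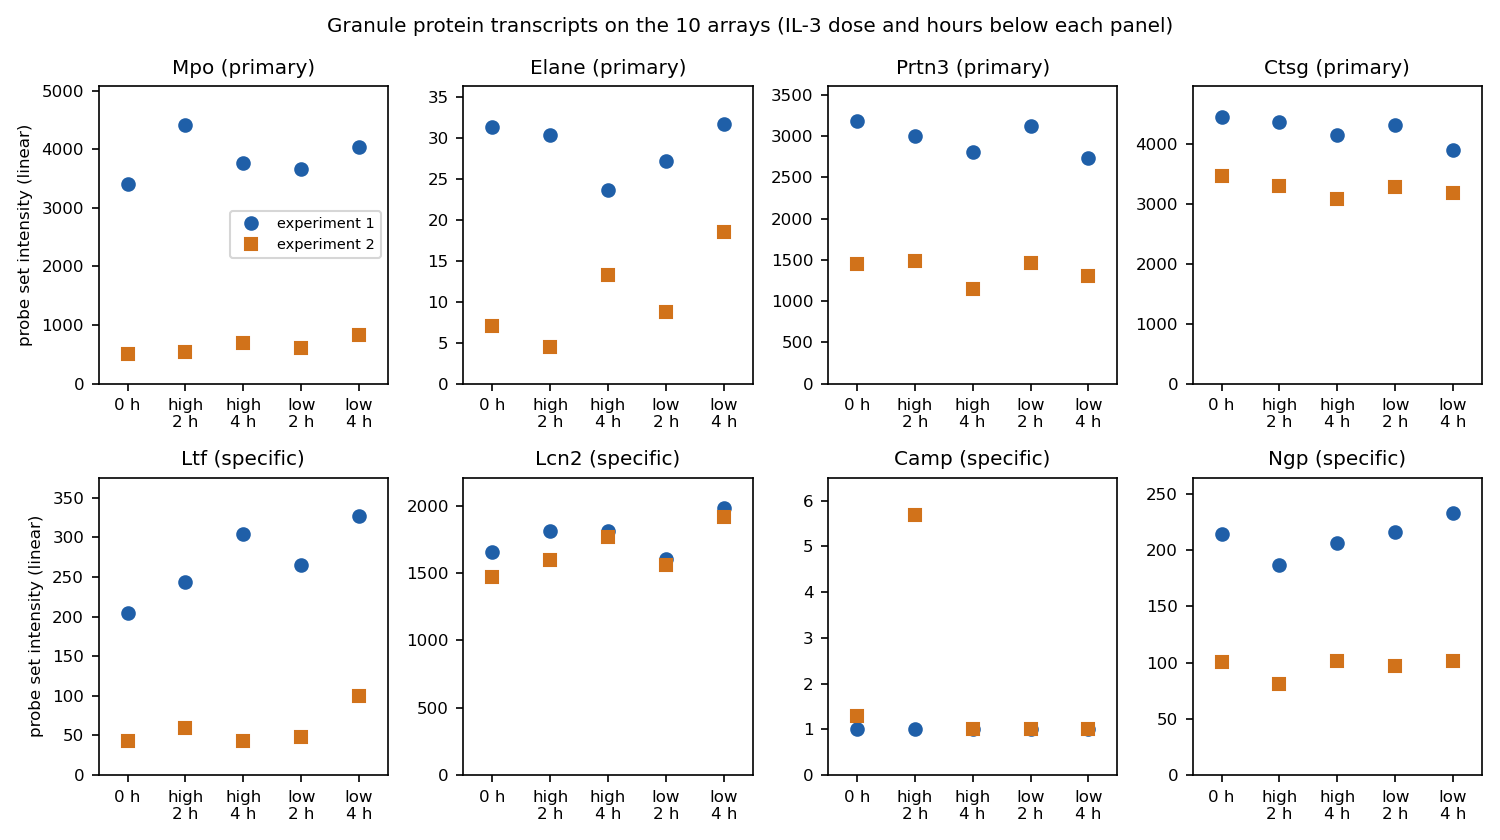
Probe set intensity (linear axis from 0, own scale in each panel) of the 8 genes on the 10 arrays, by IL-3 dose and hours, with circles for experiment 1 and squares for experiment 2. The experiments are far apart for Mpo (3409 against 509 at 0 h) and close for Lcn2 (1657 against 1474), and within experiment 2 Ltf runs from 43.0 to 99.1.

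Mpo encodes myeloperoxidase, which makes hypochlorous acid from hydrogen peroxide and chloride. Its intensity in experiment 1 was 3409 at 0 h, 4425 (2 h) and 3759 (4 h) with high IL-3, and 3667 (2 h) and 4036 (4 h) with low IL-3. In experiment 2 the same samples gave 509, 536, 687, 613 and 824. Every later array was above the 0 h array of its experiment, and the highest sample was high IL-3 at 2 h in experiment 1 and low IL-3 at 4 h in experiment 2.

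Prtn3 encodes proteinase 3, a serine protease. It read 3178 at 0 h in experiment 1, 3004 and 2810 with the high dose, and 3122 and 2734 with the low dose (2 h, then 4 h). In experiment 2 it read 1453 at 0 h, 1490 and 1143 with high, and 1466 and 1307 with low IL-3. All 4 arrays at 4 h were the lowest of their experiment, in either dose.

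Ctsg encodes cathepsin G, a protease with chymotrypsin-like specificity. It was 4455 at 0 h, 4365 and 4155 with high, and 4317 and 3913 with low IL-3 in experiment 1. The values were 3465, 3310 and 3090, and 3288 and 3179 in experiment 2. The 0 h array was the highest of each experiment. Within each experiment the lowest array was 1 of those at 4 h.

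Elane encodes neutrophil elastase and lies 3137 bases downstream of Prtn3 on chromosome 10 (gene from 79886312 to 79888216, GRCm38.p6). Its intensities were 31.3, 30.3, 23.6, 27.2 and 31.6 in experiment 1 and 6.98, 4.41, 13.3, 8.72 and 18.5 in experiment 2, in the order 0 h, high 2 h, high 4 h, low 2 h and low 4 h. The neighbouring Prtn3 probe set read 1143 to 3178 on the same arrays, and no statement on Elane mRNA is made from a probe set this dim.

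Ltf encodes lactoferrin, an iron-binding protein of the specific granules. It gave 205 at 0 h, 243 and 304 with high, and 265 and 327 with low IL-3 in experiment 1. In experiment 2 it gave 43.4, 59.9 and 43.0, and 48.4 and 99.1, values that straddle the limit for testing. The low IL-3 array at 4 h was the highest of each experiment.

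Lcn2 encodes lipocalin 2, which binds bacterial siderophores. Its values were 1657, 1811, 1813, 1604 and 1983 in experiment 1 and 1474, 1598, 1768, 1563 and 1919 in experiment 2, again in the order 0 h, high 2 h, high 4 h, low 2 h and low 4 h. The low IL-3 array at 4 h was again the highest of each experiment, and the 2 experiments overlap.

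Ngp encodes neutrophilic granule protein, a relative of the cathelicidins and cystatins. It gave 214, 186, 206, 216 and 233 in experiment 1 and 101, 81.0, 101, 96.8 and 102 in experiment 2, in the same order. High IL-3 at 2 h was the lowest array of each experiment. Camp, the cathelicidin precursor, was listed at 1 on 8 of the 10 arrays and reached at most 5.68, and 2.36% of all values in the table are listed at 1, so that no level can be given for it.

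The dose of IL-3 made no called difference to any of the 6 genes tested. In the fit with limma, 0 of 6 were higher and 0 of 6 lower in high than in low IL-3 as the mean of 2 h and 4 h, and 0 of 6 had an unadjusted p under 0.05. Over all 11856 probe sets 0.692% were called higher and 0.0169% lower at an adjusted p under 0.05. The difference in log2 was -0.07 for Mpo (95% interval -0.27 to 0.13), -0.05 for Prtn3 (-0.17 to 0.08), 0.02 for Ctsg (-0.07 to 0.11), -0.24 for Ltf (-0.53 to 0.06), -0.01 for Lcn2 (-0.14 to 0.12) and -0.15 for Ngp (-0.38 to 0.08). Their median was -0.06 beside -0.01 for all probe sets tested. The interval is narrowest for Ctsg and widest for Ltf, whose interval reaches -0.53.

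**Figure D2:**
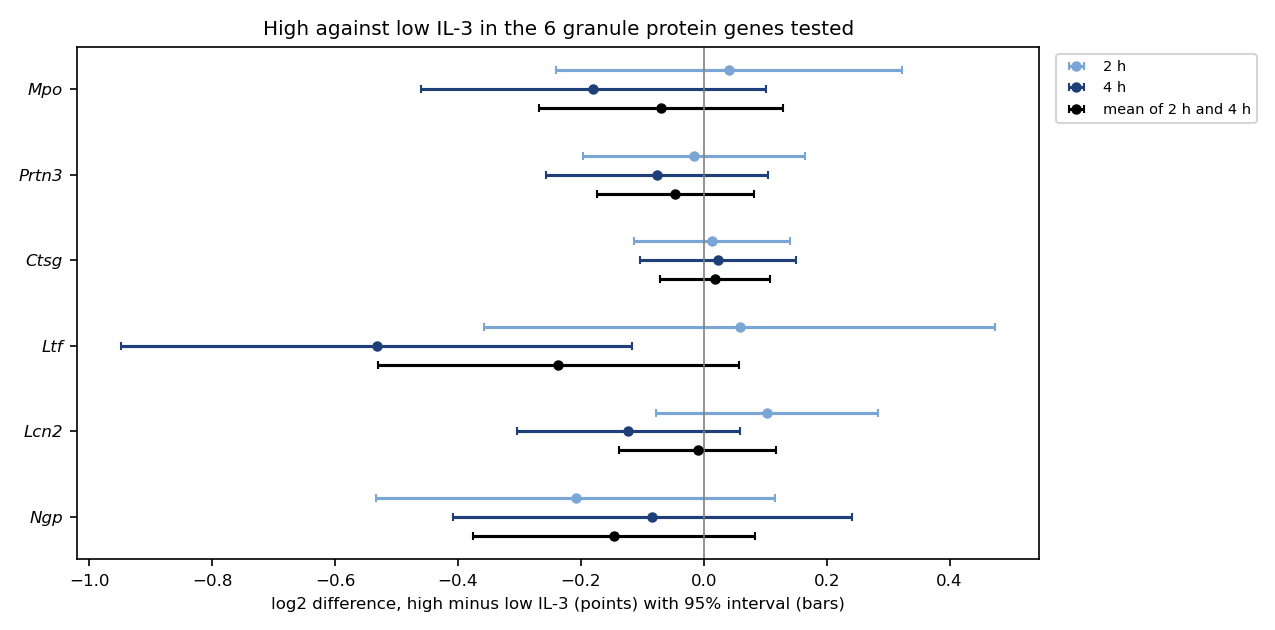
Log2 difference of high minus low IL-3 for the 6 genes tested, at 2 h, at 4 h and as the mean of both (points), with 95% intervals from limma (bars). All intervals hold 0 except that of Ltf at 4 h, from -0.95 to -0.12.

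Taken by time, 0 of 6 genes passed at 2 h (0.059% of probe sets called higher and 0% lower) and 0 of 6 at 4 h (0.388% and 0.0169%). The change of the difference from 2 h to 4 h passed for 0 of 6, as for 0% of all probe sets in either direction. At an unadjusted p under 0.05 there were 0 genes at 2 h, 1 at 4 h and 1 for the change between the times, and that gene was Ltf each time. The log2 difference of high minus low IL-3 at 4 h was -0.53 for Ltf (SE 0.20, adjusted p = 0.453 by limma), from 304 against 327 in experiment 1 and 43.0 against 99.1 in experiment 2. The larger distance thus came from experiment 2, at intensities near the limit for testing. The change for Ltf from 2 h to 4 h was -0.59 (SE 0.28, adjusted p = 0.862 by limma). When the 4 arrays of high IL-3 were each set beside the low IL-3 array of their own experiment and time, high IL-3 lay below low IL-3 in 4 of 4 for Ngp, in 3 of 4 for Mpo and Ltf, in 2 of 4 for Prtn3 and Lcn2, and in 1 of 4 for Ctsg. The share of all probe sets with each of these counts was not taken, so they are not read as an effect of dose.

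The g_score, the study's measure of stabilization by IL-3, is the area between the high and low IL-3 curves, with high IL-3 ratios to 0 h above 1 set to 1, divided by a variability that depends on the 0 h signal. It was above 0 for 2 of the 8 genes, Ctsg at 0.17 and Camp at 0.04, as for 23.3% of the 22690 probe sets, and 0 of the 8 ranked in the top 1000. The other scores were -0.44 for Prtn3, -0.83 for Ngp, -1.19 for Lcn2, -1.24 for Elane, -2.78 for Ltf and -3.09 for Mpo, which put Mpo at rank 21953. Those of Camp and Elane rest on probe sets too dim to test. The limit on ratios acts on genes above their 0 h level. Without it the score was -0.47 for Mpo, -1.12 for Ltf and 0.20 for Lcn2. With the limit on both curves the scores of these genes were 0, -0.0090 and 0.14. Ranks without the limit were not taken, and the low ranks of these genes are not read as faster decay in high IL-3.

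Over the time course the granule transcripts stayed near or above their 0 h level while transcription was blocked. At 4 h in low IL-3, Mpo was at 140% ± 30.9, Ltf at 194% ± 48.7, Lcn2 at 125% ± 7.44, Ngp at 105% ± 5.48, Ctsg at 89.8% ± 2.75 and Prtn3 at 88.0% ± 2.78 of 0 h (mean ± SD over 2 experiments). At 4 h in high IL-3 the same genes were at 123% ± 17.5, 124% ± 34.8, 115% ± 7.45, 98.4% ± 3.06, 91.2% ± 2.89 and 83.5% ± 6.89. The arrays were normalized to each other, so that a change is relative to the other probe sets of the array, and a level above 100% does not by itself mean more molecules of an mRNA.

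In low IL-3 at 4 h, 3 of the 6 genes were called higher than at 0 h and 1 lower, where 15.3% of probe sets were called higher and 38.3% lower. Ltf rose by 0.80 in log2 (SE 0.20, adjusted p = 0.0028 by limma), Mpo by 0.46 (SE 0.13, 0.0081) and Lcn2 by 0.32 (SE 0.09, 0.0053), whereas Ctsg fell by 0.16 (SE 0.06, 0.039). Prtn3 was at -0.18 with an interval from -0.36 to -0.0027 (adjusted p = 0.080) and Ngp at 0.06 with an interval from -0.26 to 0.39 (adjusted p = 0.755). The median of the 6 was 0.19 beside -0.12 for all probe sets tested. Relative to that median, the differences were 0.92 for Ltf, 0.58 for Mpo, 0.44 for Lcn2, 0.18 for Ngp, -0.03 for Ctsg and -0.06 for Prtn3. Without the 0 h array of experiment 2 the difference of Mpo was 0.39 (adjusted p = 0.057) and that of Lcn2 0.27 (0.054), and with the experiment 2 array of low IL-3 at 4 h left out that of Mpo was 0.26 (0.199) and that of Ltf 0.55 (0.076). The call of Ctsg was lost without any of 7 arrays, with values of -0.16 to -0.11.

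In high IL-3 at 4 h, 0 of 6 were called higher and 1 lower, against 9.67% and 35.4% of probe sets. Prtn3 fell by 0.26 in log2 (SE 0.08, adjusted p = 0.021 by limma), a call lost without either 0 h array or the 4 h array of experiment 2 (values of -0.27 to -0.15). Mpo was at 0.28 (95% interval 0.00012 to 0.56, adjusted p = 0.097), Ltf at 0.26 (-0.15 to 0.68), Lcn2 at 0.19 (0.01 to 0.38), Ctsg at -0.13 (-0.26 to -0.01) and Ngp at -0.02 (-0.35 to 0.30), and none of these 5 passed. The median of the 6 was 0.09 beside -0.10 for all. At 2 h, 0 of 6 genes passed in either dose, with 0 at an unadjusted p under 0.05, against 1.58% of probe sets called higher and 23% lower for low IL-3 and 3.48% and 22.6% for the high dose. Directions from 0 h depend on how the arrays are scaled. With each array set to a common 75th percentile, 6 of 6 genes were called higher at 4 h with the low dose and 5 of 6 with the high dose, Prtn3 and Ctsg turned upward, and the median of all probe sets moved from -0.12 to 0.30 (low dose) and from -0.10 to 0.31 (high dose). Of all calls in low IL-3, 28.6% were upward as deposited, 67.6% with that scaling and 60.9% with quantile normalization, and the high dose gave 21.4%, 69.8% and 62.6%. The position among all probe sets was steady for Ltf in low IL-3 and less so for the other genes. There the share of probe sets with a smaller change was 98.1% for Ltf as deposited and 98.0% to 98.1% after the 3 other scalings. For Mpo it lay at 89.5% as deposited and 80.4% to 90.9% after them. Quantile normalization moved this share in low IL-3 from 47.9% to 34.3% for Ctsg and from 46.4% to 36.5% for Prtn3. It moved the share from 82.4% to 73.0% for Lcn2 and from 64.5% to 72.6% for Ngp. In each of the 4 scalings 4 of the 6 genes lay above the median of all probe sets, in either dose.

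Half-lives were taken as ln 2 over the slope of the logarithm of the ratio to 0 h. They could be given in both experiments for 3 of the 6 genes tested with the high dose and 2 of the 6 with the low dose. Of all probe sets tested, 50.8% and 50.2% had one, so the counts do not set the genes apart. The median over those probe sets was 6.40 h in high and 5.53 h in low IL-3. Ctsg had half-lives of 43.4 and 25.2 h in high and 23.8 and 30.8 h in low IL-3 in experiments 1 and 2. Prtn3 had 22.9 and 15.2 h in high and 21.7 and 34.3 h in low IL-3, and Ngp had 31.9 and 33.6 h with the high dose and, in experiment 2 alone, 320 h with the low dose. The 2 doses overlap for Ctsg and for Prtn3. Mpo, Ltf and Lcn2 had none in any experiment or dose, since their fitted slopes were not below 0. Half-lives this far beyond the 4 h of sampling are extrapolations from small losses of signal.

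Most of the tested transcription factors known to act on these genes gave other values. Of 15 factors listed, 14 are on the array and 12 were tested, of which 8 fell and 1 rose from 0 h to 4 h in low IL-3 and 8 fell and 0 rose in high IL-3, with medians of -1.01 and -1.07 beside -0.21 and -0.16 for all genes (1 probe set each). Among the genes, 43.6% were called lower in low and 40.6% in high IL-3. Cebpa, a driver of granulocytic commitment, was left with 4.39% ± 0.225 of its 0 h signal in low and 9.84% ± 4.36 in high IL-3. Cebpb, which acts in emergency granulopoiesis, was left with 7.93% ± 1.05 and 6.30% ± 2.57, and Gfi1, a repressor needed for neutrophil maturation, with 11.3% ± 2.72 and 11.1% ± 0.875. The change at 4 h in low IL-3 was -3.64 (SE 0.21) for Cebpa, -3.48 (SE 0.17) for Cebpb, -2.92 (SE 0.19) for Gfi1 and -1.81 (SE 0.11) for Myb, with adjusted p of 6.9e-10 to 3.8e-09 by limma. Cebpd (11.7% left), Spi1 (32.1%) and Myb (28.1%) also fell. Smaller falls were those of Sp1 (-0.47) and Cbfb (-0.45). Cux1 was the 1 factor called higher, by 0.42 (SE 0.15). Runx1 had a larger value that did not pass, 0.46 in low and 0.51 in high IL-3 (adjusted p = 0.118 and 0.099 by limma). Stat3 (-0.17) and Irf8 (-0.18) did not pass in low IL-3 either. The dose of IL-3 changed 0 of the 12 by the test of the mean effect, and the smallest p was that of Cebpa, 0.38 higher in high IL-3 (SE 0.15, adjusted p = 0.452 by limma).

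**Figure D3:**
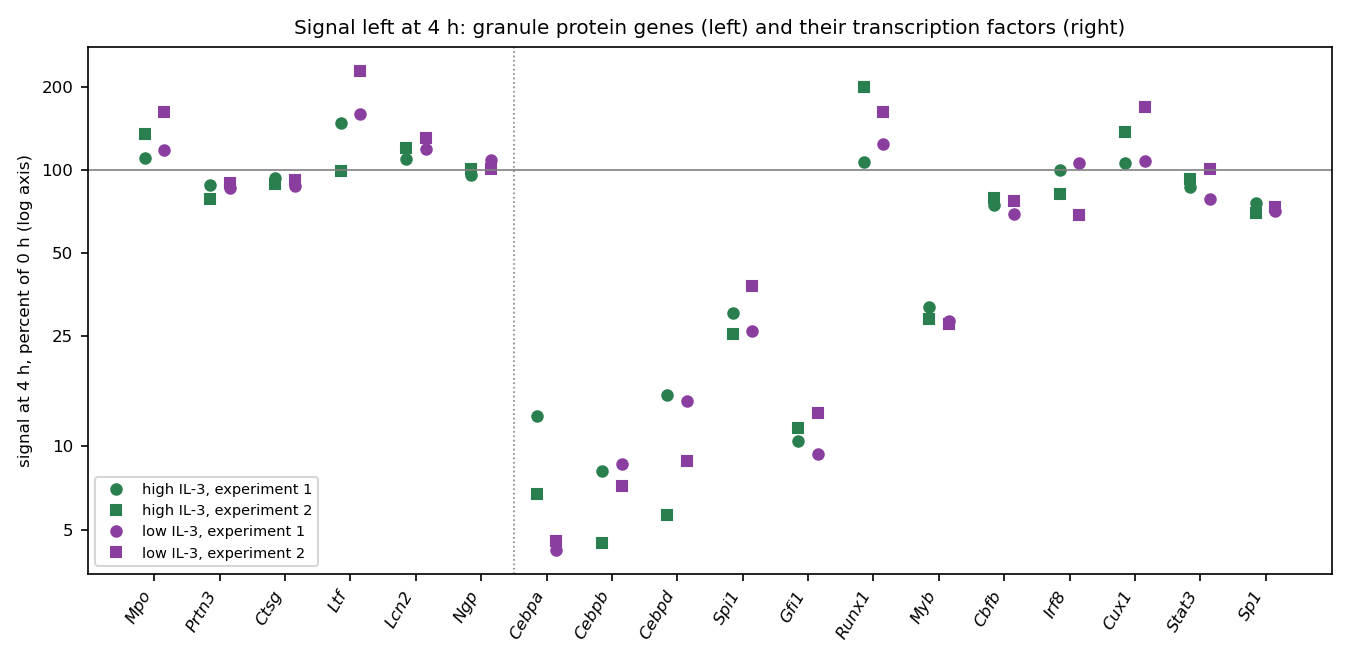
Signal at 4 h in percent of the matching 0 h array (log axis) for the 6 granule protein genes tested (left) and the 12 transcription factors tested (right), with colours for IL-3 dose and symbols for experiment. The granule genes lie between 78.7% and 228%, whereas 6 factors (Cebpa, Cebpb, Cebpd, Gfi1, Spi1 and Myb) lie far below them on all arrays.

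Among the other genes listed for granules, more rose than fell in low IL-3. Of 14 further primary granule genes listed, 8 are on the array and were tested, and 4 rose and 0 fell at 4 h in low IL-3, with a median of 0.31 beside -0.21 for all genes, of which 13.7% were called higher. These were the lysosomal protease Ctsd (0.45), the lysozymes Lyz2 (0.59) and Lyz1 (0.54), and acid ceramidase Asah1 (0.40). The Lyz1 probe set can also bind the near-identical Lyz2 and is uncertain, and its 4 h signal was 96.0% of 0 h in experiment 1 and 229% in experiment 2. With 1 array left out the difference ran from 0.12 to 0.96 for Lyz1, from 0.41 to 0.77 for Lyz2 and from 0.28 to 0.51 for Asah1, and the adjusted p of Lyz1 reached 0.752 among the alternatives run (limma). Of 30 genes listed for specific, gelatinase and secretory granules, 23 are on the array and 13 were tested. Of these, 5 rose and 1 fell at 4 h in low IL-3, with a median of 0.29. S100a8 (0.38) was among those that rose, and Ltb4r1 (-0.42) fell. Being listed does not establish that a product is stored in granules. The neutrophil surface protein Cd177 rose by 0.85, the NADPH oxidase subunit Cyba by 0.32 and the peptidoglycan recognition protein Pglyrp1 by 0.29. With the experiment 2 array of low IL-3 at 4 h left out, the calls of Ctsd (0.41), Lyz2 (0.42), Lyz1 (0.21), Asah1 (0.28), Cd177 (0.53) and Pglyrp1 (0.18) were lost. In high IL-3 at 4 h, 0 of the 8 and 2 of the 13 (Pglyrp1 and Cd177) rose and 0 fell, where 9.11% of all genes were called higher and 40.6% lower. The mean effect of IL-3 dose passed for 0 of 8 and 0 of 13.

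Genes that process, pack, inhibit or release the proteases were also counted. Of 21 listed, 17 are on the array and 16 were tested, and 5 rose and 6 fell in low IL-3 at 4 h, while 4 rose and 5 fell in high IL-3. Over all genes, 13.7% were called higher and 43.6% lower in low IL-3, and 9.11% and 40.6% in high IL-3. Jagn1, an endoplasmic reticulum protein whose loss causes neutropenia in humans, fell by 2.89 in log2 (SE 0.16) in low IL-3 and was left with 11.5% ± 1.14 of its signal, and with 14.2% ± 0.448 in high IL-3. Serpinb1a, an inhibitor of neutrophil serine proteases, fell by 0.62, Hax1, whose loss also causes neutropenia in humans, by 0.52 and Ctsc, which cuts the proteases into their active form, by 0.31. Cst7, which encodes cystatin F, rose by 0.95 and Serpinb6a, whose human counterpart inhibits cathepsin G, by 1.07. Serpinb6a started near the limit for testing, at 50.5 in experiment 1 and 49.4 in experiment 2 at 0 h. Serglycin (Srgn), the proteoglycan on which granule proteases are packed, stayed at 100% ± 0.328 of 0 h with the low dose and 96.3% ± 5.06 with the high dose. The mean effect of dose passed for 0 of 16, with Jagn1 0.41 higher in high IL-3 (SE 0.11, adjusted p = 0.146 by limma).

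Chromosomal neighbours were measured for part of the set. Lpo, which encodes lactoperoxidase and lies 2015 bases from Mpo on chromosome 11, read 1 to 3.71 on the 10 arrays. Mcpt8, a mast cell and basophil protease 14385 bases from Ctsg on chromosome 14, rose by 1.38 from 0 h to 4 h in low IL-3 (adjusted p = 5.8e-06 by limma) while Ctsg fell by 0.16. Cdc25a, a cell cycle phosphatase 26061 bases from Camp on chromosome 9, fell by 2.19 (adjusted p = 1.7e-07 by limma). On chromosome 2, 1110008P14Rik, 2721 bases from Lcn2, rose by 0.81 (adjusted p = 0.00013 by limma), and Lcn2 rose by 0.32. Ptges2 beside Lcn2 (-0.43), Nme6 beside Camp (-0.06) and Ptpn23 beside Ngp (-0.27) did not pass in that comparison. Gapdh, the study's loading control, differed by -0.04 to -0.01 at 4 h in low IL-3 in its 3 probe sets, with 0 of 3 called.

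By the root mean square distance of log2 ratios to 0 h over the 8 later arrays, the 3 genes most like Ctsg among 6791 were Ran (0.01), Cks1b (0.03) and Cct8 (0.03), where the median gene was at 0.38. Those most like Prtn3 were Trir, Pkmyt1 and Raver1 (0.06 each, median 0.40), and those most like Mpo were BC005624, Dpp8 and Itgb7 (0.07, 0.08 and 0.08, median 0.51). None of these 9 encodes a granule content of the lists. The likeness is a description over arrays that share their 0 h samples.

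For Mpo, Prtn3, Ctsg, Ltf and Ngp every array of experiment 1 lay above every array of experiment 2, whatever the dose or time. At 0 h, experiment 1 over experiment 2 was 6.70-fold for Mpo, 4.72-fold for Ltf, 2.19-fold for Prtn3, 2.13-fold for Ngp, 1.29-fold for Ctsg and 1.12-fold for Lcn2. Experiment 1 was the higher in 5 of 5 conditions for each of these 6 genes. The share of all probe sets with either pattern was not counted, so neither is read as particular to these genes. Averaged over the 5 conditions on the log2 scale, the difference was 2.59 for Mpo (2.27 to 3.01), 1.96 for Ltf (1.58 to 2.44), 1.11 for Prtn3, 1.02 for Ngp, 0.37 for Ctsg and 0.09 for Lcn2, beside a median of 0.14 over all probe sets tested. Differences beyond 1 in either direction were found for 4 of the 6 genes and for 5.41% of the 11856 probe sets. The share of probe sets with a smaller value was 99.8% for Mpo, 99.6% for Ltf, 97.4% for Prtn3 and 96.3% for Ngp. It was 69.6% for Ctsg and 45.5% for Lcn2. Each experiment is 1 culture, so no test was made. After the other scalings of the arrays the 0 h fold was 5.35 to 7.63 for Mpo and 3.59 to 5.38 for Ltf, while Lcn2 moved to between 0.90 and 1.28.

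**Figure D4:**
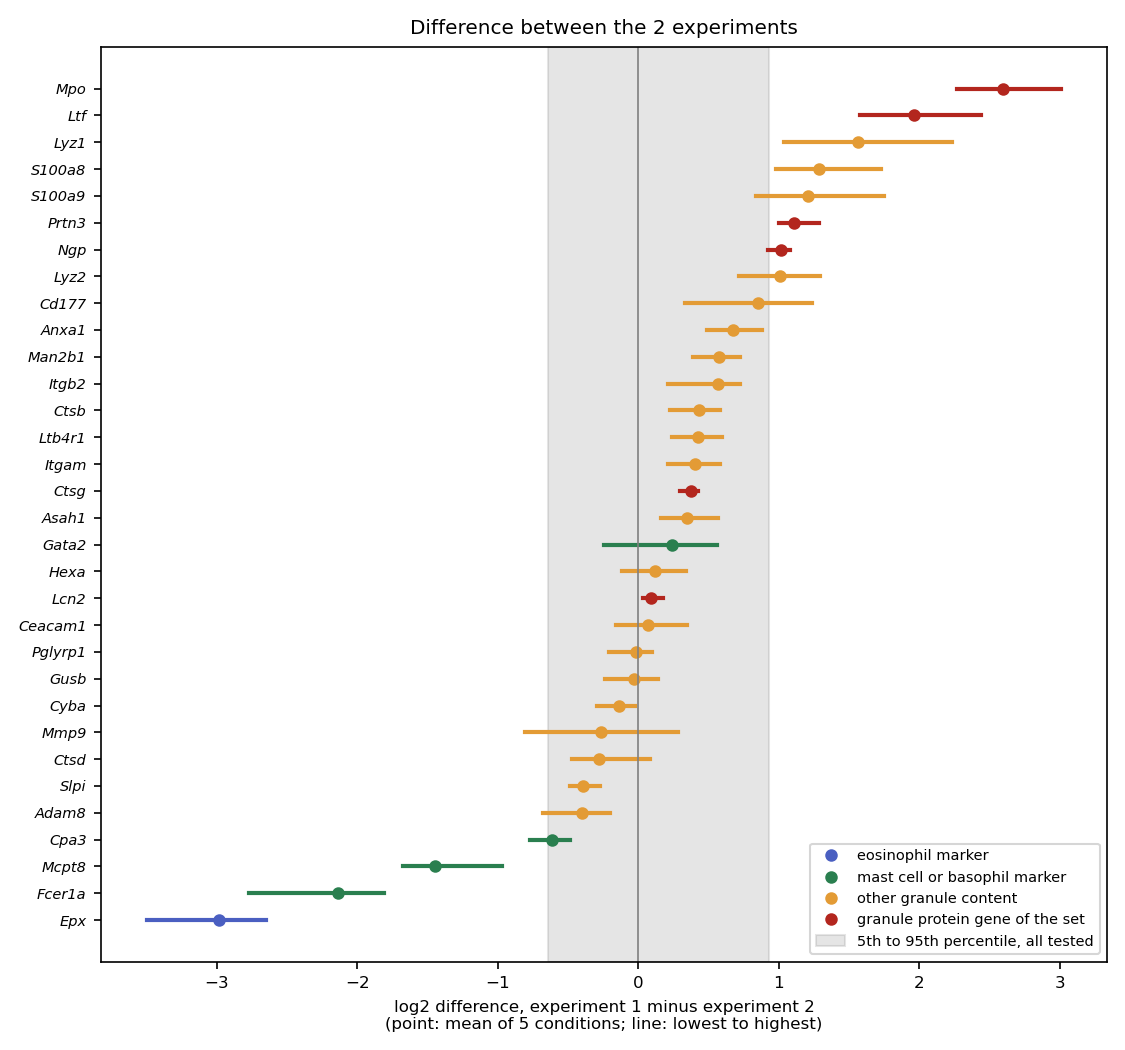
Log2 difference of experiment 1 minus experiment 2 for the granule protein genes and for tested genes of the granule, mast cell and basophil, and eosinophil lists (point, mean of the 5 conditions; line, lowest to highest), with the 5th to 95th percentile of all tested probe sets in grey (-0.64 to 0.93). Mpo (2.59) and Ltf (1.96) are at the upper end and Epx (-2.98) is at the lower.

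Among the other tested genes of the granule lists, the highest were Lyz1 (1.56), S100a8 (1.29), S100a9 (1.21) and Lyz2 (1.00) on the same scale, whereas Ctsd was at -0.28 and Pglyrp1 at -0.02. Among the tested markers of other granulocytes, the eosinophil peroxidase gene Epx was at -2.98, but it read 10.8 to 23.5 in experiment 1 and passed the limit for testing only through experiment 2 (153 to 332). Gata2 was at 0.24, the IgE receptor gene Fcer1a at -2.14, Mcpt8 at -1.44 and Cpa3 at -0.62. The summed level of the 10 mast cell and basophil markers on the array ran from 1627 to 3465 in experiment 1 and from 2579 to 3967 in experiment 2, that of the 3 eosinophil markers from 27.8 to 40.0 and from 180 to 371, and that of the 9 mature neutrophil markers, which include 4 of the genes described here, from 5163 to 6171 and from 2986 to 4006. Bright probe sets (S100a8, S100a9 and Lcn2) carry that last sum, and in the same list Cxcr2 was at -1.46 (36.0 and 148 at 0 h), Mmp8 at -0.56 and Mmp9 at -0.27. Cebpa, at 248 and 821 at 0 h, was at -1.11. The part of these other cell markers in the difference between experiments was not tested. Of the 10 myeloblast markers on the array, which include 4 of the genes described here, 7 reached a mean of 50. The summed level of the 10 ran from 12854 to 15301 in experiment 1 and from 6791 to 9019 in experiment 2. In that list the progenitor markers Kit (8.25 and 12.2 at 0 h) and Cd34 (4.52 and 3.31) were dim. Myb read 2748 and 2133, and Csf3r also reached the limit for testing. Of the marker lists of other cells, 3 of 7 macrophage genes (Adgre1 at 2889 and 3281 at 0 h) and 3 of 6 erythroid and megakaryocyte genes on the array (Itga2b at 1972 and 1823) reached a mean of 50. The fit removes a constant difference between experiments, and changes over time can still differ between them, as for Mpo at 4 h in low IL-3 (118% and 162% of 0 h) and Ltf at 4 h with the high dose (148% and 99.1%). Pairing by experiment decides the calls, since without the experiment as a block 0 of 6 genes were called at 4 h in either dose.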

How the data were processed

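RNA of 32Dcl3 cells was measured on 10 one-colour arrays of 22690 probe sets. The authors normalized the 10 arrays together with dChip at its default settings (version not given in the sources used here) and deposited linear intensity values, with array medians of 48.8 to 70.6. The scale is linear and uncentred. Precision is limited by the 2 arrays per group. The probe set names came from the platform annotation, updated through RefSeq gene IDs (GRCm38.p6), by which 20393 probe sets name 1 gene, 691 name several, which were left unnamed, and 1606 name none.

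From these values log2(intensity + 16) was tested with limma 3.58.1 in R 4.3.3 for the 11856 probe sets with a mean of at least 50, in 1 fit over the 5 groups that blocks on the experiment and models a variance trend, with Benjamini-Hochberg adjustment over all of them at a threshold of 0.05. Fold changes on this scale understate those of dim probe sets. The experiment pairs arrays because they share a divided culture, and the deviations of arrays from their group means correlated within an experiment (r = 0.762 to 0.887 over 10 pairs of groups). With the block, a constant difference between the 2 experiments does not enter the p-values. The p-values rest on how far differences between groups disagreed between the experiments, with an estimate of spread partly shared over probe sets. Half-lives came from log trend lines, which the study fitted to Northern blots, applied here to the array ratios. The g_score was rebuilt after the study's formula, with 500 places on either side in the variability. The study left out 6 outliers that the sources used here do not name, and the 6 largest differences were taken for them. Lists were counted with the brightest probe set per gene. The genes named from lists were those with the smallest p for the dose effect or the change to 4 h. The members and lists were chosen with earlier results of these data known. Of the steps, only the limma test of the mean dose effect was tried on simulated data. The alternatives tried were pseudocounts of 1 and 64, a filter at 200 or none, arrays brought to 1 value of Gapdh or of their 75th percentile, quantiles made equal, a fit without the block, one without the variance trend, the 8 later arrays alone, each array left out and, for g_scores and half-lives, other limits, the 4 h ratio alone and each experiment left out. Python 3.11.15 with numpy 2.4.6, pandas 2.3.3 and matplotlib 3.10.9 was also used.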

Additional observations from a re-analysis of the deposited data

Results flagged for a closer look

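For 1 of the 6 genes tested, high and low IL-3 differed in opposite directions at the 2 times in both experiments. The difference of high minus low IL-3 for Lcn2 was above 0 at 2 h in both experiments, at 0.17 and 0.03 in log2, and below 0 at 4 h in both, at -0.13 and -0.12. The mean at 4 h minus the mean at 2 h was -0.23. The test of that change in limma gave a 95% interval from -0.48 to 0.03 and did not pass (adjusted p = 0.895). On the mean of both experiments, Mpo (0.04 at 2 h and -0.18 at 4 h) and Ltf (0.06 and -0.53) also changed sign. The share of all probe sets that met the rule in both experiments was not counted. No group held enough arrays for a search for outlying samples.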

How the results depend on the processing

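Limits come first from the 2 arrays per group and from dim probe sets, with Elane and Camp below the limit for testing and Ltf near it in experiment 2. The counts of 0 genes called for the dose of IL-3, at each time, for their mean and for the change between times, were 0 under every alternative run. Their mean log2 difference crossed 0 for Lcn2 with Gapdh scaling (0.0073) and quantile normalization (0.0019). With 1 array left out it ran from -0.037 to 0.017 for Lcn2, from -0.20 to 0.061 for Mpo, from -0.10 to 0.0088 for Prtn3 and from -0.0059 to 0.042 for Ctsg, and for Ltf, where it kept its sign, from -0.39 to -0.088.

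Changes from 0 h depended on the scaling. At 4 h in low IL-3 the 3 genes called higher became 6 with 75th percentile scaling and 0 with no replicate block, that is, without pairing by experiment, and 1 to 3 with 1 array left out. The 1 gene called lower became 0 with 75th percentile scaling, Gapdh scaling, quantile normalization, no filter, no variance trend and no block, and 0 to 1 with 1 array left out. At 4 h in high IL-3 the 0 called higher became 5 with 75th percentile scaling, 4 with quantile normalization, 2 with Gapdh scaling and 0 to 1 with 1 array left out, and the 1 called lower became 0 with the same 3 scalings, no variance trend and no block and 0 to 1 with 1 array left out. At 2 h, 4 were called higher in low and 3 in high IL-3 with 75th percentile scaling, 1 in high IL-3 with quantile normalization and 0 to 1 with 1 array left out. With 75th percentile scaling the change at 4 h turned upward for Prtn3 (0.26 in low and 0.17 in high IL-3), Ctsg (0.29 and 0.30) and Ngp (0.37 in high IL-3). Ngp in high IL-3 also turned with quantile normalization (0.40) and Gapdh scaling (0.023), and with 1 array left out it ran from -0.082 to 0.037 for Ngp and from -0.036 to 0.56 for Ltf. The cause was not tested. The number of genes with a half-life fell to 0 in either dose with 75th percentile scaling and to 1 in low IL-3 with quantile normalization. It was 3 to 4 in either dose with 1 experiment left out. These last counts run over all 8 genes and include 2 that were too dim to test, Elane in experiment 1 and Camp in low IL-3 in experiment 2. The number with a g_score above 0 was 0 with 75th percentile scaling and 1 from either experiment alone. Of the genes, 6 were brighter than 50% of probe sets at 0 h, and 5 to 6 from either 0 h array alone. The 0 h fold of Lcn2 between experiments turned to 0.90 with 75th percentile scaling. For all probe sets, the 82 called higher for the mean dose effect became 0 to 90 under the other settings and 19 to 152 with 1 array left out. Changes called over all probe sets at 4 h in low IL-3, 1819 higher and 4535 lower, became 148 to 5870 and 2148 to 4763 under the other settings and 718 to 2003 and 3659 to 4672 with 1 array left out, and those with the high dose, 1147 and 4201, became 38 to 5954 and 1804 to 4402, and 366 to 1292 and 3485 to 4316.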
